A study of Homo sapiens with 24 samples.

Results

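The RNA exosome subunits EXOSC1 to EXOSC10 were followed through 4 RNA-seq experiments in OE33, a human line of esophageal adenocarcinoma cells. The members were the rows of the count tables whose Ensembl identifier carries 1 of these 10 symbols, which gave 10 of 61860 identifiers. Each experiment had 3 treated and 3 control libraries, 24 in all. In the HFD vs ND experiment, RNA came from xenografts of OE33 cells in male BALB/c-nu nude mice, bought at 4 weeks of age and fed either normally (ND) or on fat-rich chow (HFD, high-fat diet) for 8 weeks before subcutaneous injection and through the 3 weeks of tumor growth. Nude mice lack mature T cells and keep other immune cells. In the HA-TRIM15 vs EV experiment, cultured OE33 cells were taken 48 h after transfection with a plasmid for HA-tagged TRIM15, a ubiquitin ligase, or with the empty vector (EV). In the other experiments, cells were taken 72 h after transfection with a short hairpin RNA against YY2, a zinc-finger transcription factor related to YY1 (shYY2), or against FOXRED1, an assembly factor of mitochondrial complex I (shFOXRED1). Each had its own control hairpin group (shControl). Which of the study's hairpins against YY2 and FOXRED1 was sequenced is not given in the sources used here, nor whether replicates came from separate cultures, so p-values measure the spread between these libraries, which may be technical.

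The RNA exosome is a complex that degrades and trims RNA from the 3' end, in the nucleus and in the cytoplasm. Its core is a barrel made of a ring and a cap. The ring holds subunits related to RNase PH, in the pairs EXOSC4 with EXOSC9, EXOSC5 with EXOSC8 and EXOSC6 with EXOSC7. The cap consists of the RNA-binding subunits EXOSC1, EXOSC2 and EXOSC3. The human ring has lost the catalytic activity of its RNase PH relatives, and the RNA is threaded through the barrel to DIS3, or to DIS3L in the cytoplasm, or reaches EXOSC10, a nuclease of the nucleus with a strong presence in the nucleolus. The complex finishes ribosomal RNA, clears cryptic transcripts and degrades mRNA, and the helicases of its cofactors feed it substrates.

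Total counts per library lay between 14299807 and 45994561, and all 10 members passed the filter on low counts in each experiment, with between 111 and 2751 counts in a library. The targeted genes moved as the labels say: TRIM15 had 111, 130 and 181 counts with HA-TRIM15 and 0 in all 3 EV libraries, YY2 had 11, 12 and 11 with shYY2 against 43, 40 and 46, and FOXRED1 had 183, 207 and 129 with shFOXRED1 against 322, 259 and 254. In the xenografts TRIM15 had 14, 12 and 24 counts with HFD against 1, 0 and 0 with ND. Epithelial markers summed to between 10200 and 15000 CPM (counts scaled to the library's total) in every library. Of the markers of other cell types, the 5 fibroblast genes summed to 42.3 to 43.9 CPM with shYY2 against 10.5 to 11.1 CPM in its control, to 38.4 to 41.7 against 24.1 to 25.5 CPM with shFOXRED1, to 23.7 to 27.0 against 30.4 to 33.5 CPM with HFD and to 11.1 to 11.9 against 12.0 to 13.3 CPM with HA-TRIM15. Nearly all of this was COL1A1. The 4 immune genes summed to at most 10.7 CPM and the 3 endothelial genes to at most 0.832 CPM. The part of such genes in the results was not tested. In bulk RNA, fewer cells of a type and less RNA per cell cannot be told apart.

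The promoters of the members are shown because YY2 binds DNA through the sequence it shares with YY1, and 1 of the 4 experiments lowers YY2. RefSeq promoter windows (GRCh38.p14, 250 bases before to 50 bases after the annotated start) were found for 8 of the 10 members; EXOSC1 and EXOSC4 had none in the table. On both strands, the YY core GCCATNTT was found in windows of EXOSC2, EXOSC8 and EXOSC10, and in 6.58% of 35116 windows searched. The E-box CACGTG was found in EXOSC5 (7.26% of all windows), the NRF1 core GCGCATGC in EXOSC10 (3.05%) and the ETS sequence CCGGAAGT in no member (4.14%). In EXOSC2 the YY core lay 113 to 106 bases before the start and again 29 to 36 bases after it, while in EXOSC8 and EXOSC10 the match lay after the start, at bases 17 to 24 and 35 to 42. Such matches are letters in a window, not binding sites. Below are the 250 bases before the start, 5' to 3' on the gene's strand, of EXOSC2 (chr9:130693510-130693759, plus strand), EXOSC5 (chr19:41397360-41397609, minus strand), EXOSC6 (chr16:70251941-70252190, minus strand) and EXOSC7 (chr3:44975994-44976243, plus strand). EXOSC2 and EXOSC5 had the largest falls with shYY2, and EXOSC7 had the highest log2 fold change with shYY2. EXOSC6 is a gene the study picked, in part by CUT&Tag, its assay of YY2 binding in cells with added YY2. These genes were chosen with these values known. Capitals mark the YY core read from the other strand in EXOSC2 and the E-box in EXOSC5.
EXOSC2: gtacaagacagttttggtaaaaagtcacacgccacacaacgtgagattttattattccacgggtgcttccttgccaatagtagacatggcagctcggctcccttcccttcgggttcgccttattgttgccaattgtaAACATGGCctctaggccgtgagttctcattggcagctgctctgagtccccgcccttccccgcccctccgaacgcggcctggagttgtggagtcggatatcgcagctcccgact
EXOSC5: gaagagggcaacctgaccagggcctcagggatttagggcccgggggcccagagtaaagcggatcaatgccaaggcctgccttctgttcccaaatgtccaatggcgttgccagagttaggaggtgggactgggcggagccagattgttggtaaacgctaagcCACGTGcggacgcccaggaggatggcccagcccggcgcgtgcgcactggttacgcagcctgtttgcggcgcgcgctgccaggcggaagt
EXOSC6: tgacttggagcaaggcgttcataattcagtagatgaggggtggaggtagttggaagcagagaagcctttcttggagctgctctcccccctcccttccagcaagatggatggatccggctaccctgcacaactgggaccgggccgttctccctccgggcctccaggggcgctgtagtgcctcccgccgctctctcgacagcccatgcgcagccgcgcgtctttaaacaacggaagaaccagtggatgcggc
EXOSC7: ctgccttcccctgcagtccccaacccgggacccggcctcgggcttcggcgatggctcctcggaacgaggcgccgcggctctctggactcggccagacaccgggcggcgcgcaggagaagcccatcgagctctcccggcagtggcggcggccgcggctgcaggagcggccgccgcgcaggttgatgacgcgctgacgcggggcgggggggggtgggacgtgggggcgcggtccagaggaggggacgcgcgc
The EXOSC7 stretch was the richest of these in G and C, at 77.2%, compared to 54.4% in EXOSC2, 63.6% in EXOSC5 and 60.8% in EXOSC6.

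Levels are given as CPM after TMM normalization within an experiment. Changes are log2 fold changes of treated minus control from the quasi-likelihood test of edgeR. P-values were adjusted by Benjamini-Hochberg across every gene tested, and 0.05 was the threshold.

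**Figure D1:**
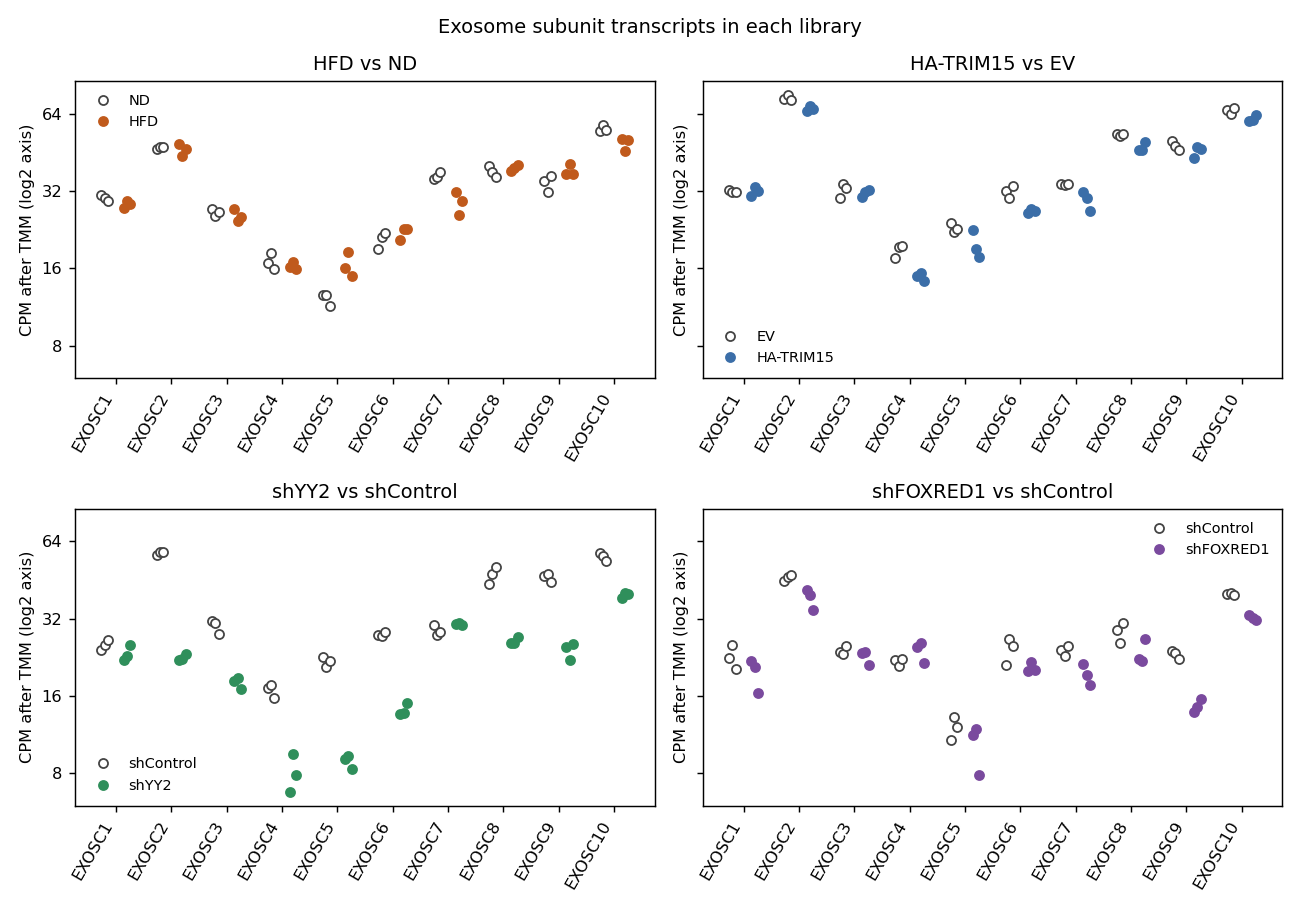
CPM after TMM normalization (log2 axis) of the 10 subunits in each library, with 1 panel for each experiment, open circles for control libraries and filled circles for treated libraries. With shYY2 the treated libraries of 8 subunits lie below all control libraries, while EXOSC7 is the subunit whose treated libraries lie above them; in the xenografts EXOSC5 lies higher and EXOSC7 lower with HFD.

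In the HFD xenografts the subunits did not move together. Compared to the ND group, EXOSC5 and EXOSC9 rose, EXOSC7 and EXOSC10 fell, and the other 6 did not pass the threshold. Over all 17012 genes tested, 25.6% were called higher and 23.9% lower (49.5% in either direction), so 4 of 10 members called is near the background. The members' median log2 fold change was -0.03, with a range from -0.33 to 0.41, and that of all genes was -0.01.

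The largest rise was that of EXOSC5, a ring subunit. It was at 16.0, 18.5 and 14.9 CPM with HFD against 12.6, 12.6 and 11.4 CPM with ND, a log2 fold change of 0.41 (SE 0.083, edgeR adjusted p = 0.000669). Every HFD library was above every ND library, with HFD replicate 2 the highest. EXOSC7, another ring subunit, was at 31.8, 25.8 and 29.2 CPM with HFD against 35.6, 36.1 and 38.0 CPM with ND, a log2 fold change of -0.33 (SE 0.062, edgeR adjusted p = 0.000337). Again the groups did not overlap, so EXOSC5 and EXOSC7 changed in opposite directions.

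The nuclease EXOSC10 was at 50.9, 45.8 and 50.4 CPM with HFD and at 54.9, 57.6 and 55.4 CPM with ND (log2 fold change -0.19, SE 0.046, edgeR adjusted p = 0.00303). The ring subunit EXOSC9 was at 37.1, 40.7 and 37.4 CPM with HFD and at 35.1, 31.6 and 36.6 CPM with ND (log2 fold change 0.16, SE 0.058, edgeR adjusted p = 0.0283). The groups of EXOSC9 were separate by a narrow margin. Its call did not hold with upper quartile scaling (0.11, adjusted p = 0.146), without HFD replicate 2 (0.13, adjusted p = 0.107) or without ND replicate 2 (0.097, adjusted p = 0.155). Groups that do not overlap were seen for the 4 called members and for 56.2% of all genes tested. The cap subunits had log2 fold changes between -0.08 and -0.02, EXOSC4 -0.07, EXOSC6 0.09 and EXOSC8 0.05. With total counts as the only scaling, under which the median of all genes was -0.12, 1 member was called higher and 6 lower, and 69.6% of all calls were lower; with upper quartile scaling 1 member was higher and 3 lower, and 60.2% of all calls were lower, compared to 48.3% with TMM. Relative to the median of all genes, the members' median was -0.02 under each of these scalings.

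With HA-TRIM15 the subunits leaned lower by small amounts. EXOSC2, EXOSC4, EXOSC6, EXOSC7 and EXOSC8 fell, none rose, and 5 did not pass the threshold. Over all 15745 genes tested, 9.53% were called lower and 12.5% higher. The members' median log2 fold change was -0.15 and that of all genes -0.01, and all 10 log2 fold changes of the members were below 0, from -0.35 for EXOSC4 to -0.0022 for EXOSC1. Of the 5 called members, 4 belong to the ring.

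EXOSC4, a ring subunit, was at 14.9, 15.3 and 14.2 CPM with HA-TRIM15 against 17.6, 19.3 and 19.6 CPM with EV, a log2 fold change of -0.35 (SE 0.073, edgeR adjusted p = 0.00333). Only 5.58% of the genes tested had a lower log2 fold change. EXOSC6, another ring subunit, was at 26.4, 27.3 and 26.8 CPM against 31.9, 30.0 and 33.5 CPM (-0.25, SE 0.057, edgeR adjusted p = 0.0064). The study picked EXOSC6 as 1 of its co-regulated genes by crossing these libraries and those with shYY2 with its CUT&Tag result for YY2. The values of EXOSC6 in both experiments are thus not independent evidence of its direction.

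EXOSC2, a cap subunit and the member with the highest CPM in this experiment, was at 65.4, 68.3 and 66.9 CPM with HA-TRIM15 and at 73.2, 75.9 and 72.5 CPM with EV (-0.14, SE 0.040, edgeR adjusted p = 0.0175). EXOSC7 was at 31.6, 30.0 and 26.8 CPM against 34.0, 33.8 and 33.9 CPM (-0.20, SE 0.059, edgeR adjusted p = 0.0263). EXOSC8 was at 46.2, 46.2 and 49.8 CPM against 53.3, 52.5 and 53.1 CPM (-0.16, SE 0.045, edgeR adjusted p = 0.0175). The groups of these members did not overlap, and those of EXOSC10 (-0.11, adjusted p = 0.075) did not overlap either, which makes 6 members separate and lower, compared to 17.6% of all genes tested.

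EXOSC5 had a log2 fold change of -0.21 (adjusted p = 0.075), with HA-TRIM15 replicate 1 at 22.5 CPM inside the control range of 22.2 to 24.0 CPM. Without that library EXOSC5 passed the threshold (-0.32, adjusted p = 0.00184) and 6 members were called lower. EXOSC4 and EXOSC6 stayed past the threshold in all 6 fits with a library left out. The other calls were lost in some of these fits, with values below 0 in each: EXOSC7 lay between -0.26 and -0.14 and lost its call in 5 of 6 fits, EXOSC8 between -0.20 and -0.14 (4 of 6) and EXOSC2 between -0.16 and -0.13 (2 of 6). In number, 4 members were called lower without HA-TRIM15 replicate 3, 3 without HA-TRIM15 replicate 2 or EV replicate 3, and 2 without EV replicate 1 or EV replicate 2. DESeq2's Wald test called 3 members lower, without EXOSC7 (adjusted p = 0.0608) and EXOSC8 (adjusted p = 0.0535). Other alternatives added calls. With upper quartile scaling 7 members were lower, EXOSC5 (edgeR adjusted p = 0.0483) and EXOSC10 (edgeR adjusted p = 0.0495) having joined. The number was 7 with total counts as the only scaling and 6 with no filter on counts. Of all calls, 51.5% were lower with upper quartile scaling and 59.4% with total counts, compared to 43.2% with TMM.

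With shYY2 the subunits fell broadly and by larger amounts. EXOSC2, EXOSC3, EXOSC4, EXOSC5, EXOSC6, EXOSC8, EXOSC9 and EXOSC10 fell, to between 0.391 and 0.710 of the control level, and EXOSC1 and EXOSC7 did not pass the threshold. This experiment moved much of the transcriptome: over all 16006 genes tested, 38.1% were called lower and 36.8% higher. The members' median log2 fold change was -0.90, and that of all genes was -0.01. The summed level of the 10 subunits was 215 ± 3.97 CPM with shYY2 and 358 ± 1.31 CPM in the control (mean ± SD, n = 3), a ratio of 0.602.

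The largest fall was in the cap. EXOSC2 was at 22.0, 22.3 and 23.3 CPM with shYY2 against 56.5, 58.2 and 58.2 CPM in the control, a log2 fold change of -1.35 (SE 0.047, edgeR adjusted p = 4.91e-13). EXOSC3 was at 18.3, 18.7 and 17.0 CPM against 31.2, 30.7 and 27.9 CPM (-0.73, SE 0.065, edgeR adjusted p = 4.19e-08). EXOSC1, the remaining cap subunit, was at 22.0, 22.9 and 25.2 CPM against 24.2, 25.2 and 26.5 CPM (-0.11, SE 0.065, edgeR adjusted p = 0.125). The cap thus held both the member with the largest fall and a member whose groups overlapped; without shYY2 replicate 3, EXOSC1 passed the threshold (-0.17, adjusted p = 0.0403) and 9 members were called lower.

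In the ring, EXOSC5 was at 9.13, 9.36 and 8.33 CPM with shYY2 against 22.6, 20.7 and 21.9 CPM (-1.29, SE 0.078, edgeR adjusted p = 4.14e-10). EXOSC7 was at 30.6, 30.9 and 30.2 CPM against 30.1, 27.5 and 28.5 CPM (0.09, SE 0.053, edgeR adjusted p = 0.144). All 3 shYY2 libraries of EXOSC7 lay above the control libraries, as for 37.5% of all genes tested, by a margin too small to pass the test; with upper quartile scaling EXOSC7 was called higher (0.17, adjusted p = 0.00915).

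EXOSC4 was at 6.76, 9.54 and 7.84 CPM with shYY2 against 17.2, 17.6 and 15.7 CPM (-1.06, SE 0.107, edgeR adjusted p = 1.92e-07), and its partner EXOSC9 was at 24.8, 22.0 and 25.4 CPM against 46.9, 47.8 and 44.5 CPM (-0.95, SE 0.058, edgeR adjusted p = 4.43e-10). EXOSC6 was at 13.6, 13.7 and 15.0 CPM against 27.7, 27.3 and 28.4 CPM (-0.98, SE 0.064, edgeR adjusted p = 1.11e-09), and EXOSC8 was at 25.8, 25.7 and 27.0 CPM against 43.7, 47.8 and 50.7 CPM (-0.86, SE 0.059, edgeR adjusted p = 1.9e-09). Both partners thus fell in the pairs EXOSC4 with EXOSC9 and EXOSC5 with EXOSC8. In the pair of EXOSC6 and EXOSC7 only EXOSC6 fell.

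The nuclease EXOSC10 had the smallest called fall, from 57.5, 55.9 and 53.7 CPM in the control to 38.4, 40.1 and 40.0 CPM with shYY2 (-0.49, SE 0.044, edgeR adjusted p = 4.88e-08). The 8 called members were called with every library left out in turn and with each other scaling, filter and test. Groups that do not overlap, with the treated libraries lower, were seen for these 8 members and for 38.8% of all genes tested.

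With shFOXRED1 EXOSC9 had the largest fall. EXOSC2, EXOSC7, EXOSC8 and EXOSC10 fell too, none rose, and 5 did not pass the threshold. Over all 15730 genes tested, 19.7% were called lower and 16.8% higher. The members' median log2 fold change was -0.24, and that of all genes was 0.01.

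EXOSC9 was at 13.9, 14.4 and 15.5 CPM with shFOXRED1 against 24.0, 23.4 and 22.4 CPM in the control, a log2 fold change of -0.67 (SE 0.097, edgeR adjusted p = 3.47e-05). It stood well apart from its control range, and 4.78% of the genes tested had a lower log2 fold change. Its partner EXOSC4 was at 24.9, 25.7 and 21.4 CPM against 22.1, 20.9 and 22.2 CPM (0.15, SE 0.095, edgeR adjusted p = 0.245), the only member with a value above 0 here.

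EXOSC10 was at 32.9, 32.1 and 31.5 CPM against 39.8, 40.3 and 39.5 CPM (-0.31, SE 0.072, edgeR adjusted p = 0.00282). EXOSC7 was at 21.4, 19.3 and 17.7 CPM against 24.0, 23.0 and 25.1 CPM (-0.30, SE 0.097, edgeR adjusted p = 0.0216). EXOSC2 was at 41.4, 39.5 and 34.5 CPM against 44.6, 46.3 and 47.2 CPM (-0.25, SE 0.078, edgeR adjusted p = 0.0162). The groups of these members did not overlap, as for 24.4% of all genes tested in the lower direction.

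EXOSC8 was at 22.2, 21.8 and 26.5 CPM against 28.9, 25.7 and 30.7 CPM (-0.28, SE 0.099, edgeR adjusted p = 0.0352), with shFOXRED1 replicate 3 above the lowest control library. That library was the lowest of the 3 shFOXRED1 libraries for EXOSC1, EXOSC2, EXOSC3, EXOSC4, EXOSC5, EXOSC7 and EXOSC10. EXOSC9 and EXOSC10 stayed past the threshold with each library left out. EXOSC8 lay between -0.37 and -0.22 and lost its call in 4 of these 6 fits, EXOSC7 between -0.37 and -0.24 (3 of 6) and EXOSC2 between -0.31 and -0.19 (2 of 6). EXOSC8 was not called with upper quartile scaling (adjusted p = 0.0601) or DESeq2's Wald test (adjusted p = 0.051). The number of members called lower was 4 without shFOXRED1 replicate 1, 3 without shFOXRED1 replicate 2, 4 without control replicate 1 or 2, and 2 without control replicate 3. It was 2 with total counts as the only scaling. With the replicate number as a block 6 members were called lower, EXOSC6 having joined them (-0.23, adjusted p = 0.044), compared to an adjusted p of 0.0897 without the block.

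**Figure D2:**
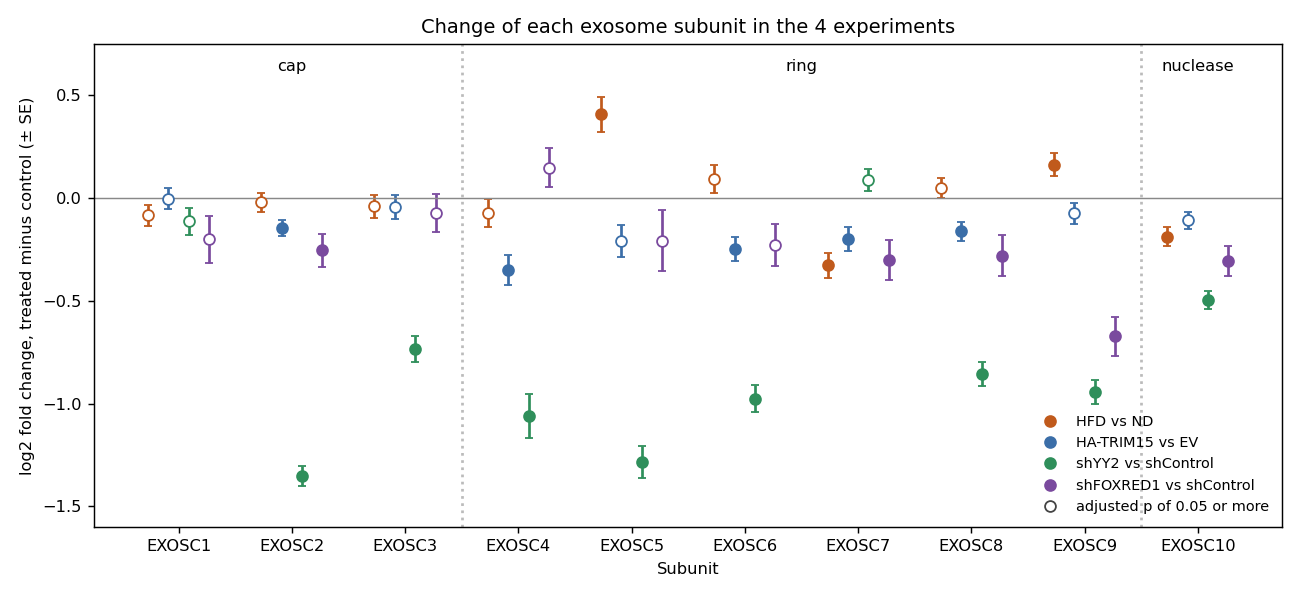
Log2 fold change of treated minus control (y axis, error bars ± SE of the fit on 3 against 3 libraries) for each subunit (x axis), colored by experiment; filled circles passed the adjusted p threshold of 0.05 and open circles did not. The shYY2 values of 8 subunits lie between -1.35 and -0.49, those of EXOSC1 and EXOSC7 at -0.11 and 0.09, and EXOSC9 is the subunit with the lowest shFOXRED1 value, -0.67.

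Across the experiments, EXOSC1 was called in none, EXOSC3 in that with shYY2 alone, and EXOSC2 and EXOSC8 were called lower in all 3 experiments with cultured cells. With HA-TRIM15 and with shFOXRED1 these calls did not hold in every alternative, as given for each experiment. Of 14529 genes tested in these 3, 259 or 1.78% were called lower in each. Whether 2 experiments differed for a subunit was tested in 1 fit of all 24 libraries, as the difference of their log2 fold changes within that fit. Between shYY2 and shFOXRED1 7 members differed, compared to 55.5% of the 17980 genes tested: 6 were lower with shYY2, most of all EXOSC4 (-1.17, SE 0.129, edgeR adjusted p = 4.68e-09) and EXOSC2 (-1.06, SE 0.079, edgeR adjusted p = 9.43e-13), and EXOSC7 was higher (0.43, SE 0.105, edgeR adjusted p = 0.000835). EXOSC9, which fell in both, had a difference of -0.23 (SE 0.103, adjusted p = 0.0632). EXOSC1 had a difference of 0.13 (SE 0.115, adjusted p = 0.367). FOXRED1 itself was lower in both experiments. In the separate fits its log2 fold change was -0.89 with shYY2 (edgeR adjusted p = 3.31e-09) and -0.78 with shFOXRED1 (edgeR adjusted p = 4.06e-05). With HA-TRIM15 it was -0.24 (edgeR adjusted p = 0.00509).

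Between HA-TRIM15 and shYY2 9 members differed, compared to 57.4% of all genes, with EXOSC1 the exception (0.08, SE 0.107, adjusted p = 0.57). Between HA-TRIM15 and shFOXRED1 3 members differed, compared to 36.5% of all genes: EXOSC9 (0.61) and EXOSC10 (0.20) were lower with shFOXRED1, and EXOSC4 (-0.49) was lower with HA-TRIM15. The xenografts differed from HA-TRIM15 cells for 3 members (28.4% of all genes), namely EXOSC5 (0.63), EXOSC6 (0.35) and EXOSC9 (0.24). They differed from shYY2 cells for 9 members (61.9% of all genes) and from shFOXRED1 cells for 5 (49.5% of all genes). For the pairs with the xenografts, tumors in mice are compared to cultured cells, each against its own control, and the setting and the treatment cannot be told apart. Among cultured cells, the treatment and the experiment it was run in cannot be told apart either. For HA-TRIM15 this includes the time, 48 h compared to 72 h with the hairpins.

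**Figure D3:**
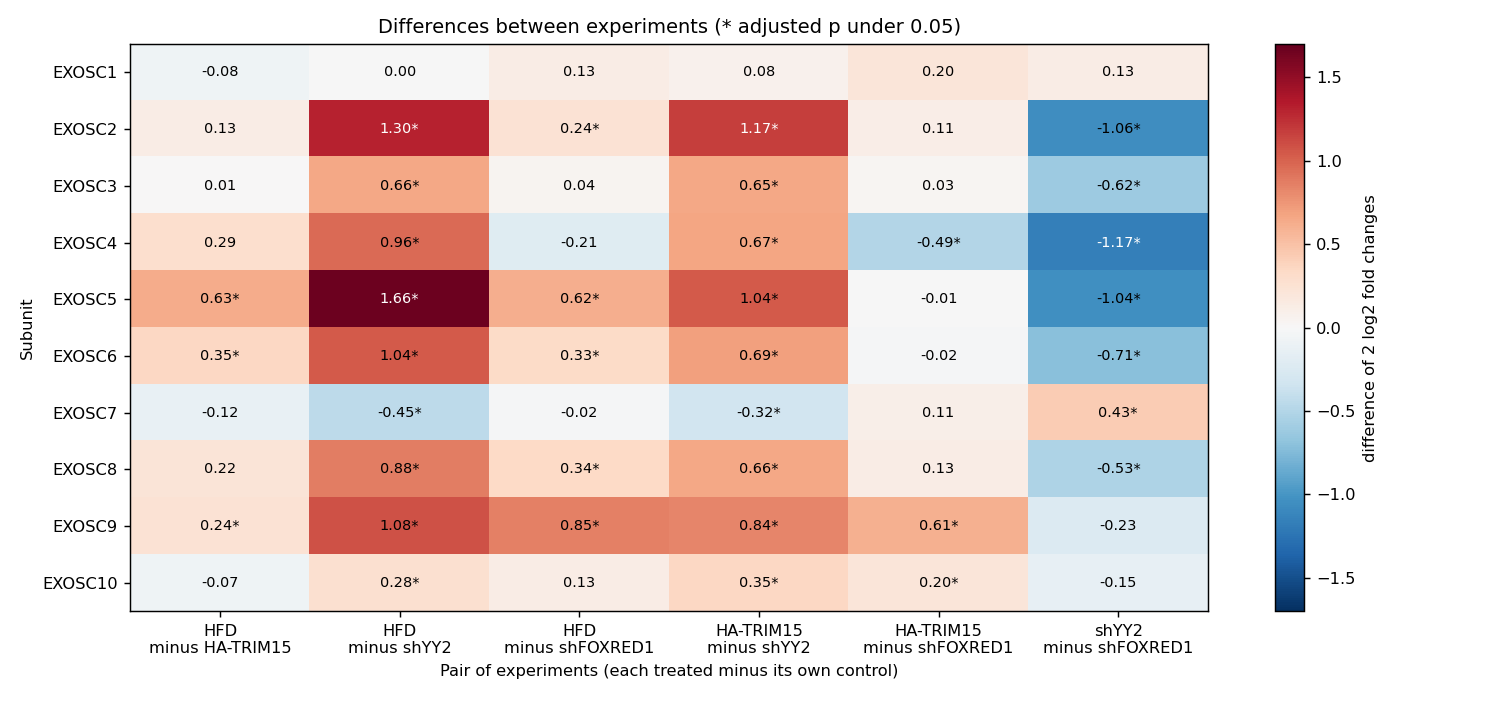
Difference between 2 experiments in the log2 fold change of each subunit, from 1 fit of all 24 libraries; color and number give the first minus the second experiment, and an asterisk marks an adjusted p under 0.05. The columns that involve shYY2 hold the largest values, up to 1.66 for EXOSC5 against HFD, EXOSC7 has there the opposite sign of the other subunits with an asterisk, and EXOSC1 has no asterisk.

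The order of the subunits was compared on the scale of CPM per kb of annotated exons, mean ± SD of 3 libraries. The experiments were normalized separately, so levels are compared within an experiment. The length joins all annotated exons of a gene, 5.153 kb for EXOSC6 and 1.407 kb for EXOSC4. The order between subunits thus depends on the annotation. EXOSC6 had the lowest level in 7 of the 8 groups, at 6.16 ± 0.339 CPM per kb with EV and 4.01 ± 0.297 with ND, and the exception was shFOXRED1, where EXOSC9 (3.10 ± 0.179) was below EXOSC6 (4.01 ± 0.165). EXOSC2 had the highest level with EV, 17.4 ± 0.425 CPM per kb, followed by EXOSC5 at 15.5 ± 0.617 and EXOSC8 at 14.6 ± 0.104. EXOSC4 had the highest level in both groups of the xenografts and of the shFOXRED1 experiment, with 12.1 ± 0.860 CPM per kb in ND and 17.1 ± 1.63 with shFOXRED1. Its lead in ND over EXOSC2 (11.1 ± 0.111) and in HFD over EXOSC5 (11.1 ± 1.23) was within the sum of their SDs, as was the gap between EXOSC9 and EXOSC6 in the control of shFOXRED1.

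The shYY2 group had another order than its control. EXOSC5 went from the highest level in the control, 14.6 ± 0.665 CPM per kb, to rank 5 with shYY2, at 6.01 ± 0.362. EXOSC2 went from rank 2 (13.6 ± 0.223) to rank 8 (5.31 ± 0.162), while EXOSC1 went from rank 8 (7.56 ± 0.348) to rank 2 (6.99 ± 0.481) and EXOSC7 from rank 9 (6.47 ± 0.298) to rank 3 (6.88 ± 0.080). With shYY2 EXOSC8 was highest, at 7.21 ± 0.209 CPM per kb, and the neighboring ranks of EXOSC8, EXOSC1 and EXOSC7 did not differ beyond their spread, nor did those of EXOSC5, EXOSC3, EXOSC4, EXOSC2 and EXOSC9. The subunits other than EXOSC6 lay between 5.11 and 7.21 CPM per kb with shYY2, compared to 6.47 to 14.6 in the control.

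**Figure D4:**
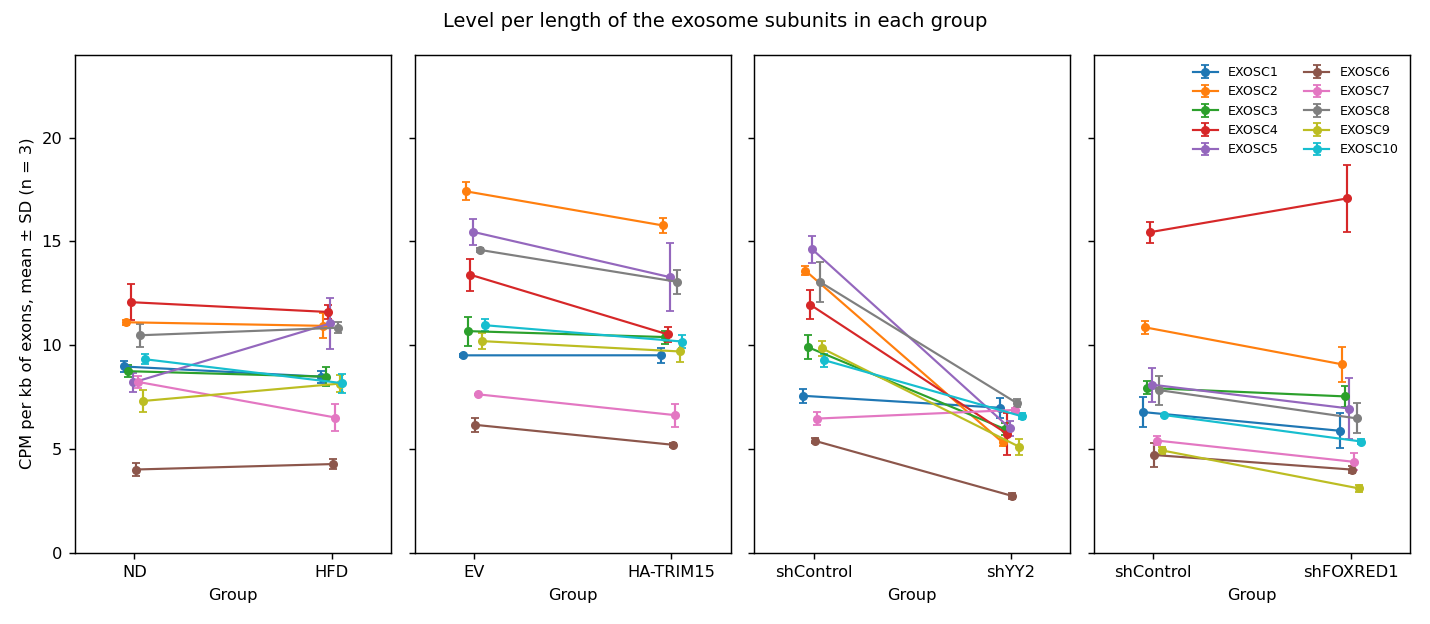
Level of each subunit in CPM per kb of exons (y axis from 0, mean ± SD, n = 3) in the control and treated group (x axis) of HFD vs ND, HA-TRIM15 vs EV, shYY2 vs shControl and shFOXRED1 vs shControl, with 1 line for each subunit. With shYY2 the lines other than EXOSC6 end between 5.11 and 7.21, EXOSC1 and EXOSC7 start at 7.56 and 6.47 in that control, and EXOSC6 is lowest at 2.74.

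Genes at the same loci served as a readout that the choice of members did not use. Distances are between the outer starts of the gene spans in GENCODE 29. These differ from the RefSeq starts used for the promoter windows, most of all for EXOSC3, EXOSC7 and EXOSC8. EXOSC1 starts 114 bases from ZDHHC16, a palmitoyltransferase gene on the opposite strand. ZDHHC16 fell with HFD (-0.33, edgeR adjusted p = 3.16e-06) and with shYY2 (-0.74, edgeR adjusted p = 4.39e-10), and rose with shFOXRED1 (0.21, edgeR adjusted p = 0.0266), while EXOSC1 passed the threshold in none of these. The outer start of EXOSC3 lies 935 bases from that of DCAF10, which encodes a substrate receptor of a ubiquitin ligase. With shYY2 DCAF10 rose (0.82, edgeR adjusted p = 2.67e-11), and EXOSC3 fell; the genes share 96 exon bases. TRMT10B, a tRNA methyltransferase gene whose span overlaps EXOSC3 from the opposite strand, rose with shYY2 too (0.42, edgeR adjusted p = 0.0017). The outer start of EXOSC7 lies 944 bases from that of ZDHHC3, another palmitoyltransferase gene, which rose with shYY2 (0.24, edgeR adjusted p = 2.11e-06).

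The span of EXOSC8 overlaps that of ALG5, a glucosyltransferase gene of N-glycan synthesis on the opposite strand. With shYY2 ALG5 fell by more than EXOSC8 (-1.65, edgeR adjusted p = 1.92e-11). SUPT20H, which shares 302 exon bases with EXOSC8 from the opposite strand and encodes a subunit of the SAGA complex, fell with shYY2 too (-0.33, edgeR adjusted p = 1.71e-05). Neither passed the threshold with HA-TRIM15 or shFOXRED1, where EXOSC8 fell.

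EXOSC9 shares 254 exon bases with CCNA2, the gene of cyclin A2, on the opposite strand. CCNA2 rose with HFD (0.60, edgeR adjusted p = 4.78e-09) and fell with HA-TRIM15 (-0.12, edgeR adjusted p = 0.0416), with shYY2 (-0.59, edgeR adjusted p = 1.76e-10) and with shFOXRED1 (-0.59, edgeR adjusted p = 3.66e-05). In the 3 experiments in which EXOSC9 passed the threshold, CCNA2 had the same direction. Whether reads were counted by strand is not settled by the sources used here, so reads of EXOSC9 and CCNA2 in the shared bases, and likewise of EXOSC8 and SUPT20H, cannot be told apart. EXOSC4 shares 274 exon bases with the antisense gene AC109322.1, which had between 4 and 74 counts. EXOSC7 shares 604 exon bases on its own strand with CLEC3B, which had at most 4 counts. EXOSC5 starts 19 bases from BCKDHA, which had at most 5 counts, and the 2 antisense genes at EXOSC10 had at most 9. EXOSC2 and EXOSC6 had no overlapping gene and none that starts within 1000 bases on the opposite strand.

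**Figure D5:**
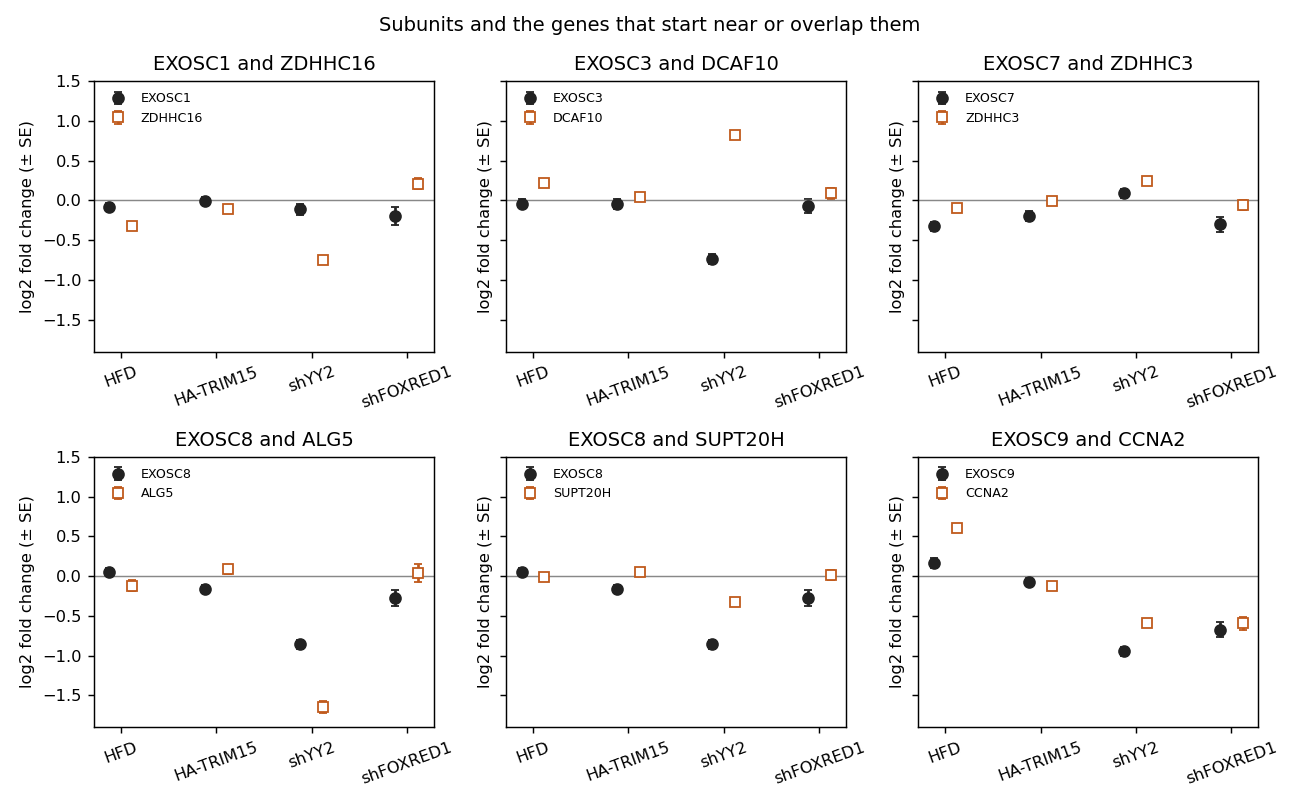
Log2 fold changes (y axis, ± SE, 3 against 3 libraries) in the 4 experiments (x axis) for subunits (filled circles) and genes that start near or overlap them (open squares). With shYY2 EXOSC3 and DCAF10 lie on opposite sides of 0, at -0.73 and 0.82, ALG5 lies below EXOSC8, and CCNA2 lies on the side of EXOSC9 in all 4 experiments.

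The partners that make the complex work were read from a list of 23 catalysts and cofactors. DIS3, the main nuclease of the nuclear exosome, rose with HFD (55.8 ± 2.37 against 44.3 ± 1.27 CPM, log2 fold change 0.33, edgeR adjusted p = 1.42e-05) and with HA-TRIM15 (55.2 ± 4.25 against 46.0 ± 0.741 CPM, 0.26, edgeR adjusted p = 0.00324). It fell slightly with shYY2 (-0.11, edgeR adjusted p = 0.0181) and had -0.05 with shFOXRED1 (adjusted p = 0.625). In HA-TRIM15 cells DIS3 was thus higher while 5 core subunits were lower. DIS3L, its cytoplasmic counterpart, fell with shYY2 (21.9 ± 1.03 against 36.0 ± 0.404 CPM, -0.72, edgeR adjusted p = 5.97e-09) and passed the threshold in no other experiment. MTREX, the helicase that feeds the nuclear exosome, rose with HFD (0.18, edgeR adjusted p = 0.00309), fell with shYY2 (-0.55, edgeR adjusted p = 3.1e-10) and with shFOXRED1 (-0.34, edgeR adjusted p = 0.000576), and had 0.08 with HA-TRIM15 (adjusted p = 0.185).

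With shYY2 15 of the 23 fell and 4 rose, compared to 38.1% and 36.8% of all genes tested. MPHOSPH6, which binds the nuclear exosome with MTREX, fell most (7.21 ± 0.505 against 25.0 ± 1.14 CPM, -1.79, edgeR adjusted p = 8.76e-12), followed by the cap-binding subunit NCBP1 (-1.20, edgeR adjusted p = 5.31e-14). ZCCHC7 of the TRAMP complex (0.51, edgeR adjusted p = 1.71e-06) and ZFC3H1 of the PAXT connection (0.49, edgeR adjusted p = 6.86e-08) rose. The list's median log2 fold change was -0.24, compared to -0.90 for the 10 subunits.

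With HFD 8 of the 23 rose and 2 fell, compared to 25.6% and 23.9% of all genes tested. C1D, a partner of EXOSC10, was at 23.5 ± 1.11 CPM with HFD and 11.6 ± 1.40 CPM with ND (1.02, edgeR adjusted p = 1.83e-08), while SRRT (-0.29, edgeR adjusted p = 2.5e-06) and the poly(A) polymerase TENT4A (-0.11, edgeR adjusted p = 0.0423) fell. With HA-TRIM15 7 of the 23 rose, among them RBM7 of the NEXT complex (0.30, edgeR adjusted p = 0.00312), and 4 fell, among them the poly(A)-binding protein PABPN1 (-0.26, edgeR adjusted p = 0.00764) and ZC3H18 (-0.17, edgeR adjusted p = 0.0119), compared to 12.5% higher and 9.53% lower of all genes tested. SKIC2 was called lower there with overlapping groups and 9 to 159 counts. With shFOXRED1 22 of the 23 were tested, and 9 fell and 3 rose, compared to 19.7% and 16.8% of all genes tested. The poly(A) polymerase TENT4B (-0.85, edgeR adjusted p = 1.57e-06) and SKIC3 of the cytoplasmic SKI complex (-0.41, edgeR adjusted p = 0.000273) fell, and ZC3H3 (0.49, edgeR adjusted p = 0.000129) and PABPN1 (0.46, edgeR adjusted p = 0.00455) rose.

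The next list holds genes of deadenylation, decapping and 5' to 3' decay, the other route of mRNA decay. It also holds DIS3L2, a 3' to 5' nuclease outside that route. LSM2 had at most 2 counts, and whether it was not expressed or its reads were not counted was not tested. Of the 29 listed genes, 28 were tested in each experiment. Their counts stand beside the same shares of all genes: 25.6% higher and 23.9% lower with HFD, 12.5% and 9.53% with HA-TRIM15, 36.8% and 38.1% with shYY2, and 16.8% and 19.7% with shFOXRED1. With HFD 11 rose, among them CNOT6 (0.80, edgeR adjusted p = 8.87e-11) and CNOT1 (0.40, edgeR adjusted p = 5.86e-08), subunits of the CCR4-NOT deadenylase, and 4 fell, among them the deadenylase subunit PAN2 (-0.49, edgeR adjusted p = 8.33e-07) and DCP1B of the decapping complex (-0.39, edgeR adjusted p = 0.000614). With HA-TRIM15 5 rose, among them CNOT3 (0.69, edgeR adjusted p = 0.0137) and DCP1A (0.22, edgeR adjusted p = 0.00433), and 2 fell, DIS3L2 (-0.17, edgeR adjusted p = 0.0499) and CNOT9 (-0.16, edgeR adjusted p = 0.00651). With shYY2 13 fell, among them LSM5 (-0.99, edgeR adjusted p = 1.93e-09) and LSM3 (-0.95, edgeR adjusted p = 3.98e-09) of the LSM ring, and 8 rose, among them CNOT6L (1.03, edgeR adjusted p = 6.05e-13) and PAN2 (0.90, edgeR adjusted p = 1.65e-10). With shFOXRED1 8 fell, among them PATL1 (-0.67, edgeR adjusted p = 4.72e-07) and the decapping enzyme DCP2 (-0.38, edgeR adjusted p = 0.000466), and DCP1B rose (0.71, edgeR adjusted p = 0.00338).

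Of 14 genes of nonsense-mediated decay, which removes mRNAs with early stop codons, 5 rose and 2 fell with HFD, 3 rose with HA-TRIM15, 9 fell and 2 rose with shYY2, and 1 rose and 1 fell with shFOXRED1. The shares of all genes called in each experiment are those given above for the decay list, and nothing particular to this list is read from its counts. The kinase SMG1 rose with HFD (0.25, edgeR adjusted p = 1.21e-05), HA-TRIM15 (0.29, edgeR adjusted p = 2.26e-05) and shYY2 (0.20, edgeR adjusted p = 3.57e-06). With shYY2 RBM8A of the exon junction complex (-0.92, edgeR adjusted p = 6.61e-09) and UPF3B (-0.75, edgeR adjusted p = 7.66e-07) fell. With shFOXRED1 RBM8A rose (0.28, edgeR adjusted p = 0.0138).

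Among 13927 other genes tested in all 4 experiments with a mean of at least 1 CPM, those whose 4 log2 fold changes lay nearest to the members' medians, by Euclidean distance, were STOML2 (distance 0.040), HARS1 (0.075), SAE1 (0.083), C19orf48P (0.090) and EFTUD2 (0.101). STOML2, which encodes a protein of the inner mitochondrial membrane, had log2 fold changes of -0.03 with HFD, -0.15 with HA-TRIM15, -0.89 with shYY2 and -0.20 with shFOXRED1, beside the members' medians of -0.03, -0.15, -0.90 and -0.24.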

How the data were processed

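RNA-seq of 24 OE33 libraries was analysed, 3 in each of 8 groups. The authors deposited unnormalized read counts for 61860 Ensembl identifiers, in a separate table for each experiment. Per the labels, the submitters' processing notes name the genome builds hg38 and mm10, with no role given. The aligner, the counter, the strand setting and the treatment of mouse reads in the xenografts are not given in the sources used here. The labels and the paper's methods name different extraction and library kits. Symbols were found for 99.8% of the identifiers, and 94.3% are in GENCODE 29 (GRCh38), which gave exon lengths and neighboring genes. No value column was left unused.

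The libraries of an experiment were filtered by filterByExpr (at least 10 counts, 15 in total), scaled by TMM and compared with glmQLFit and glmQLFTest in edgeR 4.0.16 (R 4.3.3, limma 3.58.1). Benjamini-Hochberg adjustment covered every gene tested, and the threshold was 0.05. A standard error is the absolute log2 fold change over the root of F. With 3 against 3 libraries, exact tests of 1 value reach 0.1 at the least. Differences between experiments came from 1 fit of all 24 libraries. The procedure was tested on simulated counts. Alternatives were DESeq2 1.42.0 (size factors or Wald test), upper quartile scaling, total counts, other count filters, a fold change of at least 1.2, the replicate number as a block and leaving out each library. None of 24 replicate pairs differed by less than sampling noise (chi-square per gene 1.47 to 7.94).

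The members, the gene lists and the tests were chosen with earlier results of these data known. Besides the members and the targeted genes, the text names DIS3, DIS3L and MTREX, neighbors of the members, the 5 nearest genes by log2 fold changes and, for each list and experiment, at most 2 genes per direction, those that changed most among called genes with separate groups. The values of 1 gene that this rule selects are not reported here. Proteins were not analysed here.

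Whether replicate numbers pair libraries was checked with the correlation of deviations from the group means over genes with a mean of at least 5 CPM. It was 0.16, 0.116 and 0.321 in the shFOXRED1 experiment, each more than the limit of 0.1, which counts as pairing; the fit without the block remained the reported one, and the value with the block is given where it changes a call; over all genes tested it was 0.0318, 0.0125 and 0.0775. In every other experiment at least 1 number was at or below the limit.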

Additional observations from a re-analysis of the deposited data

Results flagged for a closer look

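The values here are subunits whose change differed between 2 experiments by the test of the difference itself, in 1 edgeR fit of all 24 libraries with Benjamini-Hochberg adjustment over 17980 genes. Each is the log2 fold change of the first experiment minus that of the second, both taken within this fit. It can thus differ somewhat from the difference of the values of the separate fits. For HFD minus HA-TRIM15 it was 0.63 for EXOSC5, 0.35 for EXOSC6 and 0.24 for EXOSC9, with adjusted p between 0.00101 and 0.0295. For HFD minus shYY2 it was 1.30 for EXOSC2, 0.66 for EXOSC3, 0.96 for EXOSC4, 1.66 for EXOSC5, 1.04 for EXOSC6, -0.45 for EXOSC7, 0.88 for EXOSC8, 1.08 for EXOSC9 and 0.28 for EXOSC10, with adjusted p between 1.09e-15 and 0.000394. For HFD minus shFOXRED1 it was 0.24 for EXOSC2, 0.62 for EXOSC5, 0.33 for EXOSC6, 0.34 for EXOSC8 and 0.85 for EXOSC9, with adjusted p between 1.59e-08 and 0.00956. For HA-TRIM15 minus shYY2 it was 1.17 for EXOSC2, 0.65 for EXOSC3, 0.67 for EXOSC4, 1.04 for EXOSC5, 0.69 for EXOSC6, -0.32 for EXOSC7, 0.66 for EXOSC8, 0.84 for EXOSC9 and 0.35 for EXOSC10, with adjusted p between 1.87e-14 and 0.00538. For HA-TRIM15 minus shFOXRED1 it was -0.49 for EXOSC4, 0.61 for EXOSC9 and 0.20 for EXOSC10, with adjusted p between 1.08e-05 and 0.017. For shYY2 minus shFOXRED1 it was -1.06 for EXOSC2, -0.62 for EXOSC3, -1.17 for EXOSC4, -1.04 for EXOSC5, -0.71 for EXOSC6, 0.43 for EXOSC7 and -0.53 for EXOSC8, with adjusted p between 9.43e-13 and 0.000835. The comparisons with HFD set xenografts against cultured cells, and the setting and the treatment cannot be told apart. Those among cultured cells leave treatment and experiment confounded, and for HA-TRIM15 also the time of 48 h against 72 h.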

How the results depend on the processing

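Of 280 values of the members under alternatives that kept all libraries, 255 kept their direction and their side of the threshold, 9 lost the call, 13 gained one and 3 turned; of 240 values with a library left out, 212 kept both, 22 lost the call, 3 gained one and 3 turned. The values that turned were not called: EXOSC8 with HFD (-0.0078 with upper quartile scaling, -0.0604 with total counts), EXOSC6 with HFD (-0.0166 with total counts), EXOSC2 with HFD (between -0.0524 and 0.0186 with a library left out, above 0 without HFD replicate 2) and EXOSC1 with HA-TRIM15 (between -0.0273 and 0.0278, above 0 without HA-TRIM15 replicate 1 or EV replicate 1). The causes of the changes were not tested.

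With upper quartile scaling 1 member was higher with HFD (median -0.087) and 17 pathway genes lower, 10 pathway genes were lower with HA-TRIM15, and 1 member was higher with shYY2 (median -0.82). With total counts, the xenografts had 1 member higher and 6 lower (median -0.14), with 13 pathway genes higher and 28 lower; HA-TRIM15 had a median of -0.18 and 12 pathway genes lower; and shFOXRED1 had 2 members lower (median -0.18) and 9 pathway genes lower, with 3 members that differed from the xenografts. With DESeq2's size factors 5 members differed between HFD and HA-TRIM15. DESeq2's Wald test gave 5 pathway genes lower with HFD and 3 members lower with HA-TRIM15. With a fold change of at least 1.2, HFD had 1 member higher and 1 lower, with 9 and 4 pathway genes; HA-TRIM15 had 1 member lower, with 3 pathway genes higher and 1 lower; shYY2 had 9 pathway genes higher; and shFOXRED1 had 11 lower.

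With a library left out, members called higher with HFD numbered 1 to 2 and pathway genes called lower 5 to 8. With HA-TRIM15 2 to 6 members were lower, 10 to 23 pathway genes higher and 2 to 11 lower. With shFOXRED1 2 to 5 members were lower, 4 to 8 pathway genes higher and 10 to 24 lower, and the members' median lay between -0.29 and -0.20. Between HFD and HA-TRIM15 2 to 5 members differed.

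With the replicate number as a block, HFD had 2 members higher and 2 lower, HA-TRIM15 6 lower (EXOSC5 added, adjusted p = 0.0343), shYY2 8 lower and shFOXRED1 6 lower; the block changed no other call of a member. A library held between 111 and 2751 counts of a member. In 3 of the 4 experiments EXOSC4 and EXOSC5 had the lowest CPM, without correction for exon length, and the largest standard errors. Small changes of these members were measured least precisely there. The exception was the shFOXRED1 experiment.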
